A study of Arabidopsis thaliana with 6 samples.

Results

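Tonoplast intrinsic proteins (TIPs) are the water channels of the vacuolar membrane. The 6 TIP genes described here were taken by a list of loci from the 20297 genes listed in any of the count tables. They are TIP1;1 (AT2G36830, also called GAMMA-TIP), TIP1;2 (AT3G26520), TIP2;1 (AT3G16240, also called DELTA-TIP), TIP2;2 (AT4G17340), TIP2;3 (AT5G47450) and TIP4;1 (AT2G25810), and are written below with a hyphen, as in protein databases (TIP1-1 and so on). All 6 were listed for the PEG and NaCl treatments. For cold, 4 were listed, and TIP2-3 and TIP4-1 were not.

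The study sequenced RNA from leaves of 2-week-old Arabidopsis thaliana under stress, in the wild type Col-0 and in lsm1a lsm1b, a line mutated in both genes for LSM1. LSM1 belongs to a ring-shaped cytoplasmic complex that activates removal of the mRNA cap, the step that commits a transcript to decay from its 5′ end. All plants grew in long days. The cold groups grew on soil and were kept at 4 °C for 24 h under a photon flux of 40 µmol per square metre per second. The PEG groups grew on plates and were moved for 10 h to plates with 55% polyethylene glycol, which withdraws water, and the NaCl groups to plates with 150 mM salt for 10 h. Each of the 6 groups was 1 library, and no unstressed library is analysed here. The sources used here do not say whether a library pools plants or which mutant alleles the line carries.

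Aquaporins are small membrane proteins whose pore is lined by a pair of short Asn-Pro-Ala (NPA) loops. TIPs let water pass between cytoplasm and vacuole, and by that route help a cell to keep its volume when the water outside is withdrawn or salty. TIP1-1 and TIP1-2 are the gamma type found widely in vegetative tissue, TIP2-1, TIP2-2 and TIP2-3 are the delta type, of which TIP2-1 and TIP2-3 are also known to pass ammonia, and TIP2-2, TIP2-3 and TIP4-1 are best known from roots.

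The first NPA loop is shown because it is the stretch that makes these genes 1 family, and because its differences show how far the copies can be told apart by their reads. Each line is 51 bases of coding sequence from RefSeq (TAIR10.1), on the coding strand and 5′ to 3′, with the Asn-Pro-Ala codons in capitals.
TIP1-1: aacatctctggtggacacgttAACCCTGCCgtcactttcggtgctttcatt
TIP1-2: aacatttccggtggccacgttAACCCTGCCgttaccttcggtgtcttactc
TIP2-1: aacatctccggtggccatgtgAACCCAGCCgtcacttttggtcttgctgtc
TIP2-2: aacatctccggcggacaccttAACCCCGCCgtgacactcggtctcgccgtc
TIP2-3: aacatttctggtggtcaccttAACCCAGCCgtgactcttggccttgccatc
TIP4-1: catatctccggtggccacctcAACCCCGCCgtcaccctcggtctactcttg

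Over the whole coding sequence, TIP2-2 and TIP2-3 were identical at 81.5% of aligned positions and TIP1-1 and TIP1-2 at 81.1%. The lowest identity among the 15 pairs was 58.7%, between TIP2-3 and TIP4-1. The longest exact run shared by TIP1-1 and TIP1-2 was 29 bases, and that shared by TIP2-2 and TIP2-3 was 26 bases. The sources used here do not say how reads that fit more than 1 gene were treated. The proteins were 249 to 253 residues long, and a search of the translated coding sequence found 2 NPA motifs in each.

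In the coordinates of the count tables (TAIR10), TIP1-1 lies on chromosome 2 at 15445425 to 15446574 on the plus strand and TIP4-1 on the same chromosome at 11012506 to 11014170, also plus. TIP1-2 lies on chromosome 3 at 9722443 to 9723815 on the minus strand. TIP2-2 lies on chromosome 4 at 9699253 to 9700410 on the plus strand and TIP2-3 on chromosome 5 at 19248249 to 19249504 on the minus strand. TIP2-1 occupies 5505404 to 5507050 of chromosome 3, plus strand, and its last 120 bases overlap PnsB3, a gene of the chloroplast NDH complex on the minus strand. Strand of counting is not given, so reads of the overlap cannot be assigned to either gene. PnsB3 had 297 counts in Col-0 and 244 in lsm1a lsm1b in cold, 64 and 140 under PEG, and 637 and 647 under NaCl, fewer than TIP2-1 in every library. In the reference annotation an antisense RNA also overlaps TIP2-1, and the other 5 TIP genes overlap no annotated gene.

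The libraries held 10289392 to 22639128 counts over 18168 (cold), 18734 (PEG) and 19468 (NaCl) listed genes. Listing needed a level of about 1 RPKM (reads scaled to gene length and library size) in either library of a stress, so TIP2-3 and TIP4-1 were low in both cold libraries. LSM1A had 206, 246 and 273 counts in Col-0 and 10, 26 and 12 in lsm1a lsm1b in cold, PEG and NaCl. LSM1B had 152 and 39 counts in cold and 207 and 98 in PEG, but 195 in Col-0 and 439 in the NaCl library labelled lsm1a lsm1b, against its label. The cold and PEG ratios do not use this library, and the test across the 3 stresses is also given without the NaCl pair. The 7 photosynthesis genes used as leaf markers were at 4425 to 33048 CPM (counts scaled to library size), summed, in every library.

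Within each stress most TIP transcripts were more abundant in lsm1a lsm1b than in Col-0. The threshold was a 2-fold difference with the higher library at 5 CPM or more. It was passed upward by 2 of the 4 listed TIP genes in cold (TIP1-1 and TIP2-2), 5 of 6 in PEG (all but TIP4-1) and 6 of 6 in NaCl, and downward by none. The higher library alone sets the level. A gene below 5 CPM in the other library can therefore pass only in the direction of the higher one. TIP2-3 in NaCl was such a gene, at 4.51 CPM in Col-0. Among all genes with the higher library at 5 CPM or more, the same threshold was passed upward by 8.26% in cold, 3.60% in PEG and 5.50% in NaCl. The TIP list was chosen with earlier results of these data known, so these shares are given for scale and do not test it. The median log2 ratio of lsm1a lsm1b over Col-0 was 1.47 over the TIP genes in cold, 2.01 in PEG and 2.18 in NaCl, beside −0.02, 0.00 and −0.01 over all genes. With 1 library per genotype and stress there is no replicate behind these ratios, and so no p-value. Their intervals are exact binomial 95% intervals that cover counting error only.

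**Figure D1:**
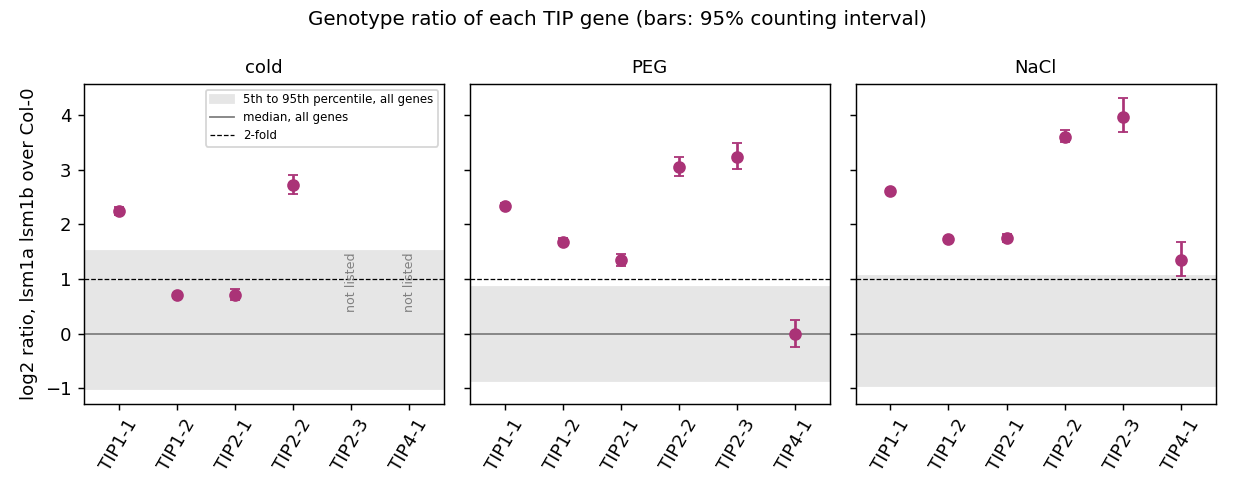
Log2 ratio of lsm1a lsm1b over Col-0 (vertical axis) for each TIP gene in cold, PEG and NaCl, with 95% counting intervals; the grey band spans the 5th to 95th percentile of all genes and the dashed line is 2-fold. TIP1-1, TIP2-2 and TIP2-3 stand highest wherever they were listed, and TIP4-1 lies at 0 in PEG and at 1.35 in NaCl.

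TIP1-1, the gamma-type channel and a usual marker of the vacuolar membrane, had 1960 counts in Col-0 and 8151 in lsm1a lsm1b in cold, 5771 and 27505 under PEG, and 12412 and 85299 under NaCl. The mutant library was the higher of the pair in all 3 stresses. After scaling, the log2 ratio was 2.24 (95% interval 2.17 to 2.31) in cold, 2.34 (2.30 to 2.38) in PEG and 2.62 (2.59 to 2.64) in NaCl, or 4.71-, 5.06- and 6.13-fold. Ranked from the highest ratio down, TIP1-1 was gene 428 of 14816 in cold, 95 of 15070 in PEG and 126 of 15906 in NaCl.

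TIP1-2, its closest relative, differed less between genotypes in cold than in the plate treatments. It had 5898 and 8462 counts in cold, 3072 and 9289 under PEG, and 9704 and 36292 under NaCl, Col-0 first. The log2 ratio was 0.70 (0.65 to 0.75) in cold, 1.68 (1.62 to 1.74) in PEG and 1.74 (1.71 to 1.77) in NaCl. The cold interval lay below both plate intervals, on counting error alone.

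TIP2-1, a delta-type channel for water and ammonia, followed TIP1-2 closely. Its counts were 1471 and 2125 in cold, 922 and 2204 under PEG, and 2035 and 7676 under NaCl, Col-0 first. The log2 ratio was 0.71 (0.62 to 0.81) in cold, 1.34 (1.23 to 1.46) in PEG and 1.75 (1.68 to 1.82) in NaCl. In cold its interval overlapped that of TIP1-2, and in PEG it lay below.

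TIP2-2, a delta-type channel best known from roots, had a higher ratio than TIP1-1 in each stress. Counts were 319 in Col-0 and 1870 in lsm1a lsm1b in cold, 297 and 2333 under PEG, and 684 and 9349 under NaCl. The log2 ratio was 2.72 (2.56 to 2.91), 3.05 (2.88 to 3.24) and 3.60 (3.50 to 3.72), which is 6.61-, 8.29- and 12.2-fold. These ratios ranked 309th in cold, 60th in PEG and 62nd in NaCl among all genes.

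TIP2-3, the near relative of TIP2-2 and likewise a root gene, had the highest ratio of the 6 in both stresses in which it was listed. In PEG its counts were 159 in Col-0 and 1422 in lsm1a lsm1b, a log2 ratio of 3.23 (3.01 to 3.49). In NaCl it had 91 and 1615 counts, a log2 ratio of 3.96 (3.68 to 4.31), or 15.5-fold. The ranks were 54 and 45. Its PEG interval overlapped that of TIP2-2, while its NaCl interval overlapped only narrowly, from 3.68 to 3.72.

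TIP4-1, a water channel described mainly in roots, was the exception. In PEG its counts were 295 in Col-0 and 278 in lsm1a lsm1b, a fold of 1.0 after scaling with a log2 interval of −0.24 to 0.24. In NaCl it had 120 and 345 counts, a log2 ratio of 1.35 (1.06 to 1.67). It was thus level between genotypes in PEG and 2.54-fold apart in NaCl, and the NaCl difference rests on the library labelled lsm1a lsm1b whose LSM1B count goes against the label.

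Markers of other organs were read beside these ratios. Of 15 root markers, 6, 14 and 12 were listed in cold, PEG and NaCl, and their summed level was 26.1 CPM in Col-0 and 44.6 in lsm1a lsm1b in cold, 294 and 195 under PEG, and 152 and 231 under NaCl. The largest part of the PEG sum was RCI3, a peroxidase gene, at 3044 and 1714 counts. Of the 7 root markers at the level tested in PEG, 1 passed the 2-fold rule upward and none downward, with a median log2 ratio of −0.76. It was the iron transporter IRT1 (35 and 126 counts, log2 ratio 1.87). In NaCl 4 of 10 root markers at the level tested passed the 2-fold rule upward and none downward. Over all genes 3.6% passed upward in PEG and 5.5% in NaCl. IRT1 in PEG was at 1.77 CPM in Col-0. In NaCl LRX1, CASP2 and PRP3 were at 3.17, 2.23 and 3.17 CPM in Col-0. These markers met the level limit only through lsm1a lsm1b, so they could pass upward only. A single listed root marker, CASP1 in Col-0 in cold, was at 0. The 7 leaf markers had median log2 ratios of −0.29, 0.07 and 0.06 in cold, PEG and NaCl. Of them 1 passed the 2-fold rule, LHCB1.2, lower in cold (−1.23).

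Of 9 seed markers none was listed in cold, and their summed level was 639 and 1075 CPM in PEG and 46.5 and 698 in NaCl, Col-0 first. In NaCl 6 of 6 tested seed markers were at least 2-fold higher in lsm1a lsm1b, and in PEG 4 were higher and 5 lower. In NaCl SESA1, SESA2 and CRU3 were at 0.30, 0.20 and 3.67 CPM in Col-0. They met the level limit only through lsm1a lsm1b, so they could pass upward only. In PEG CRU2 and SESA4 met it only through Col-0, at 2.78 and 1.87 CPM in lsm1a lsm1b. None of 3 pollen markers was listed. The part of root or seed material in the TIP ratios was not tested, and in such bulk samples more cells of a type and more RNA per cell cannot be told apart.

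The test across stresses asks whether the genotype difference holds over the stress pairs, which stand in for replicates. It was edgeR's quasi-likelihood test with stress as a block, fitted to the genes listed in all 3 stresses, with p adjusted over all 16927 genes tested. TIP2-2 was called higher in lsm1a lsm1b with a log2 difference of 3.14 ± 0.22 (SE, adjusted p = 0.0302). TIP1-1 was called with a log2 difference of 2.40 ± 0.19 (SE, adjusted p = 0.0351). Of all genes tested, 0.112% were called higher, 19 genes in number.

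TIP1-2 and TIP2-1 were not called in that test. Their log2 differences were 1.38 ± 0.27 (SE, adjusted p = 0.141) and 1.27 ± 0.23 (SE, adjusted p = 0.133), and lsm1a lsm1b was the higher library in 3 of 3 stresses for each. With only 2 residual degrees of freedom the calls moved with the pairs in the fit. Without the NaCl pair the log2 difference of TIP1-1 was 2.29 (adjusted p = 0.286) and that of TIP2-2 was 2.90 (adjusted p = 0.196), and without the PEG pair they were 2.45 (adjusted p = 0.299) and 3.19 (adjusted p = 0.243). No gene at all was called in either of those fits, while 1430 and 1547 had an unadjusted p under 0.05. Without the cold pair all 4 TIP genes were called, beside 826 of all 16931 genes in either direction. DESeq2 on the 6 libraries also called all 4, beside 839 genes in either direction, against 36 in the main fit.

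A fit to the 4 plate libraries alone, added after the data were seen, gave values to TIP2-3 and TIP4-1 as well. It had 1 residual degree of freedom, so its p-values draw on the spread of all genes as well. Without the NaCl pair it would hold the PEG libraries alone, whose ratios are given above. In it 5 of 6 TIP genes were called higher in lsm1a lsm1b, beside 2.58% of the 18385 genes tested. The log2 differences were 3.60 ± 0.25 for TIP2-3 (SE, adjusted p = 0.00127) and 3.33 ± 0.22 for TIP2-2 (SE, adjusted p = 0.00106). TIP1-1 stood at 2.47 ± 0.23 (adjusted p = 0.00418), TIP1-2 at 1.70 ± 0.20 (adjusted p = 0.00897) and TIP2-1 at 1.54 ± 0.19 (adjusted p = 0.0105). TIP4-1, with 0.66 ± 0.34 (adjusted p = 0.338), was not called.

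Per length, the gamma types were the most abundant TIP transcripts in every library. Levels are RPKM on scaled library sizes. In Col-0 TIP1-1 was at 166 RPKM in cold, 268 in PEG and 551 in NaCl, and in lsm1a lsm1b at 783, 1346 and 3400. That placed it 790th, 392nd and 137th among the listed genes of the Col-0 libraries and 129th, 47th and 10th in those labelled lsm1a lsm1b.

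TIP1-2 was at 441, 126 and 380 RPKM in Col-0 and at 717, 401 and 1276 in lsm1a lsm1b, in the same order of stresses. In cold it stood above TIP1-1 in Col-0 by 2.65-fold (2.52 to 2.79), whereas in lsm1a lsm1b TIP1-1 stood above TIP1-2 by 1.09-fold (1.06 to 1.13). In both plate treatments TIP1-1 was the higher of the pair in either genotype, by 1.45- to 3.36-fold.

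The delta types changed places between the genotypes. TIP2-1 was at 115, 39.6 and 83.6 RPKM in Col-0 and 189, 99.7 and 283 in lsm1a lsm1b. TIP2-2 was at 29.3, 14.9 and 32.9 RPKM in Col-0 and 195, 124 and 404 in lsm1a lsm1b. In the 3 Col-0 libraries TIP2-1 thus exceeded TIP2-2, by 2.54- to 3.94-fold. In lsm1a lsm1b TIP2-2 was the higher in PEG, by 1.24-fold (1.17 to 1.31), and in NaCl, by 1.43-fold (1.38 to 1.47), and in cold they did not differ beyond counting error, at a ratio of 1.03 (0.97 to 1.10).

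TIP2-3 and TIP4-1 closed the order. TIP2-3 was at 7.45 RPKM in PEG and 4.07 in NaCl in Col-0, and at 70.1 and 64.9 in lsm1a lsm1b. TIP4-1 was at 12.5 and 4.84 RPKM in Col-0 and at 12.4 and 12.5 in lsm1a lsm1b. In Col-0 TIP4-1 lay above TIP2-3 in PEG, by 1.67-fold (1.37 to 2.04), and in NaCl they did not differ beyond counting error (1.19-fold, 0.90 to 1.58). In lsm1a lsm1b TIP2-3 lay above TIP4-1 by 5.67-fold in PEG and 5.19-fold in NaCl.

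**Figure D2:**
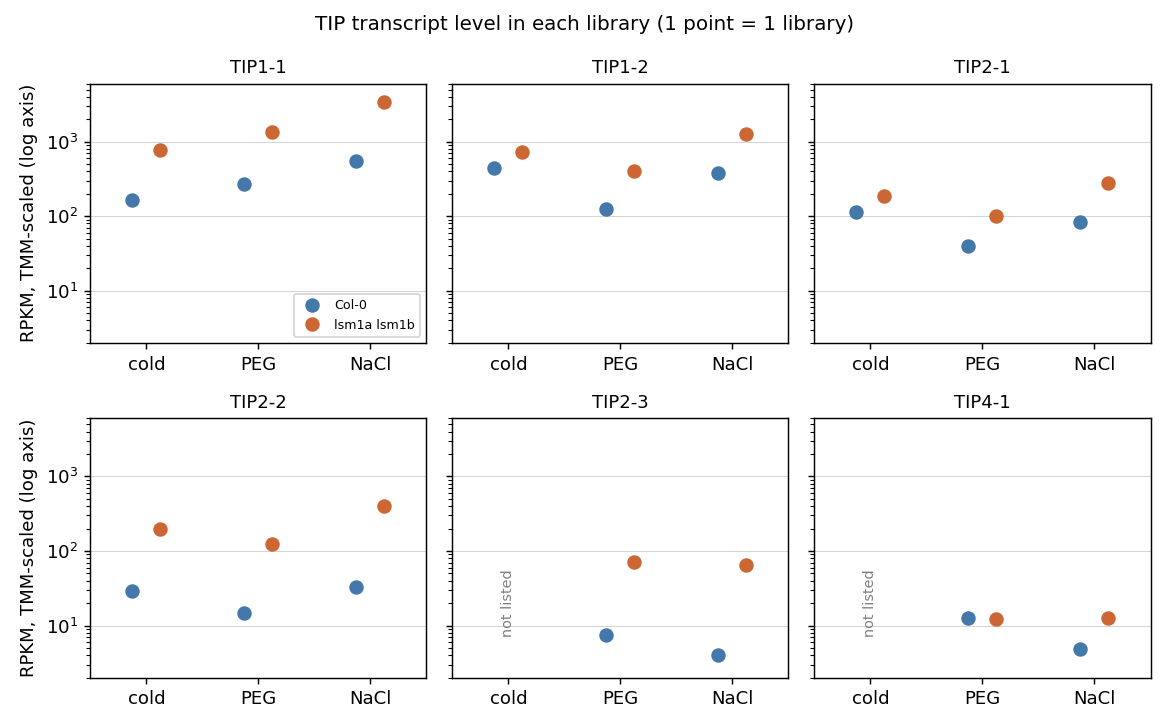
Transcript level of each TIP gene (RPKM, log axis) in cold, PEG and NaCl, with 1 point per library, blue for Col-0 and orange for lsm1a lsm1b. The lsm1a lsm1b point is above the Col-0 point in every stress in which a gene was listed except for TIP4-1 in PEG, where they meet at 12.4 and 12.5 RPKM.

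Summed over the listed TIP genes, TIP reads made up 0.0777% (Clopper-Pearson 95% interval 0.0761 to 0.0792) of all counts in Col-0 and 0.20% (0.198 to 0.203) in lsm1a lsm1b in cold. In PEG the shares were 0.0512% (0.0503 to 0.0522) and 0.238% (0.236 to 0.241). In NaCl they were 0.124% (0.123 to 0.126) and 0.621% (0.618 to 0.624), the highest share of the 6 libraries. The intervals cover counting error only. TIP1-1 alone supplied 20.3% of the TIP counts in Col-0 and 39.6% in lsm1a lsm1b in cold, 54.9% and 63.9% under PEG, and 49.6% and 60.7% under NaCl.

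**Figure D3:**
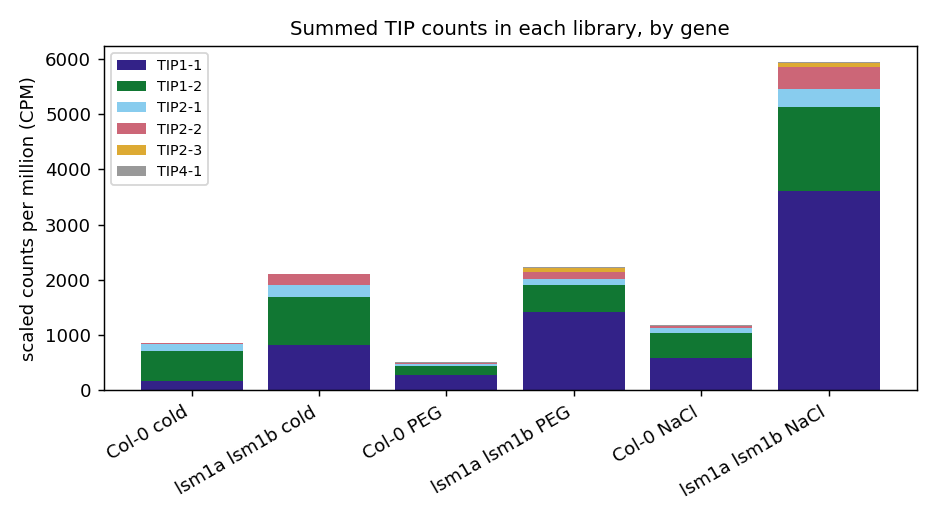
Summed CPM of the TIP genes in each library (vertical axis), stacked by gene. The columns reach 866 CPM in Col-0 and 2097 in lsm1a lsm1b in cold, 518 and 2229 under PEG, and 1178 and 5935 under NaCl, and TIP1-1 is the widest band in the 4 plate libraries.

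NaCl and PEG were compared because both groups grew on plates and were treated for the same time. The gamma types and TIP2-1 and TIP2-2 were higher in NaCl in both genotypes. TIP1-1 was 2.05-fold higher in NaCl than in PEG in Col-0 and 2.53-fold in lsm1a lsm1b, TIP1-2 was 3.02- and 3.18-fold higher, TIP2-1 was 2.11- and 2.84-fold higher, and TIP2-2 was 2.20- and 3.27-fold higher. TIP2-3 and TIP4-1 went the other way in Col-0, at 0.547 of the PEG level (0.418 to 0.712) and 0.389 of it (0.312 to 0.482). In lsm1a lsm1b TIP2-3 was at 0.925 (0.861 to 0.995) of its PEG level and TIP4-1 at 1.01 (0.861 to 1.19).

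In the 6-library edgeR fit, with genotype as a block, 3 of 4 TIP genes were called higher in NaCl, beside 5.33% of all genes. The log2 differences were 1.18 ± 0.23 for TIP1-1 (SE, adjusted p = 0.0458), 1.63 ± 0.32 for TIP1-2 (adjusted p = 0.0473) and 1.44 ± 0.25 for TIP2-2 (adjusted p = 0.0409). TIP2-1, at 1.30 ± 0.28 (adjusted p = 0.0536), was not called there. DESeq2 called it, at 1.30 (adjusted p = 0.00129), and called 3040 genes in either direction, against 1446 by edgeR. In the added fit to the 4 plate libraries these 4 TIP genes were called, at 1.21 to 1.65, beside 14.4% of all genes. TIP2-3 was at −0.43 ± 0.23 (adjusted p = 0.212) and TIP4-1 at −0.63 ± 0.34 (adjusted p = 0.218), and neither was called. The 7 leaf markers were also higher in NaCl, with 5 of 7 called in the 6-library fit and a median log2 difference of 1.44, and the part of leaf material in the TIP values was not tested.

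Between cold and the plate treatments, TIP1-1 was the 1 TIP gene called. Its log2 difference of cold from the mean of PEG and NaCl was −1.34 ± 0.21 (SE, adjusted p = 0.00728), called lower in cold together with 21.3% of all genes. The other 3 listed TIP genes were not called and had differences of 0.59 ± 0.24 for TIP2-1 (adjusted p = 0.101), 0.52 ± 0.27 for TIP1-2 (adjusted p = 0.176) and 0.08 ± 0.22 for TIP2-2 (adjusted p = 0.773), while 21.8% of all genes were called higher in cold. In Col-0, the cold level of TIP1-1 was 0.619 of the PEG level, while TIP1-2, TIP2-1 and TIP2-2 were at 3.50, 2.91 and 1.96 times theirs. Against NaCl in Col-0, TIP1-1 was at 0.301 and TIP1-2, TIP2-1 and TIP2-2 at 1.16, 1.38 and 0.89. For lsm1a lsm1b the cold levels, in the same order of genes, were 0.582, 1.79, 1.89 and 1.57 times the PEG levels. They were 0.230, 0.562, 0.667 and 0.482 times the NaCl levels. Without the NaCl pair TIP1-1 stood at −0.76 (adjusted p = 0.0732) and was not called, whereas the other 3 were called higher in cold. In that fit 5989 of all 16907 genes were called in either direction. Without the PEG pair TIP1-1 was called lower in cold, at −1.93 (adjusted p = 0.0329), beside 2535 of all 16916 genes called. There TIP1-2, TIP2-1 and TIP2-2 stood at −0.32, −0.067 and −0.62 and were not called. All 7 leaf markers were called higher in cold, with a median log2 difference of 2.14, and 4 of 6 root markers were called lower, and their part in the TIP values was not tested. Soil against plate, temperature, light, duration and agent differ together in this contrast and cannot be told apart.

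Likeness of pattern was measured as the root mean square difference between log2 CPM profiles, each centred on its own mean over the libraries. Among the 6 TIP genes the closest pair was TIP1-2 and TIP2-1, at 0.176 over 6 libraries, although their coding sequences are identical at only 66.5% of positions. The TIP pair next in likeness, TIP1-1 and TIP2-2, differed by 0.772. The least alike were TIP2-2 and TIP4-1, at 1.69 over the 4 plate libraries.

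Over the 14615 genes listed in all stresses at a mean of at least 5 CPM, TIP2-1 was the nearest gene to TIP1-2 and TIP1-2 the nearest to TIP2-1. The gene that came next for both was AT3G61490, at 0.300 from TIP1-2 and 0.202 from TIP2-1. For TIP1-1 the nearest was OFP1, a gene of the OVATE family of transcriptional regulators, at 0.163, with 20 and 104 counts in cold, 78 and 472 under PEG, and 199 and 1179 under NaCl, Col-0 first. The plasma membrane aquaporin PIP2-3 came next, at 0.357. TIP2-2 had no neighbour that close, with AT1G12080 at 0.585 and PIP2-2 at 0.609. Over the 4 plate libraries and 14903 genes, the nearest to TIP2-3 were AT5G24080 at 0.0899 and AT4G38410 at 0.119, and the nearest to TIP4-1 were LOG5 at 0.0415 and SPP1 at 0.0535, on fewer points and so more easily close.

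**Figure D4:**
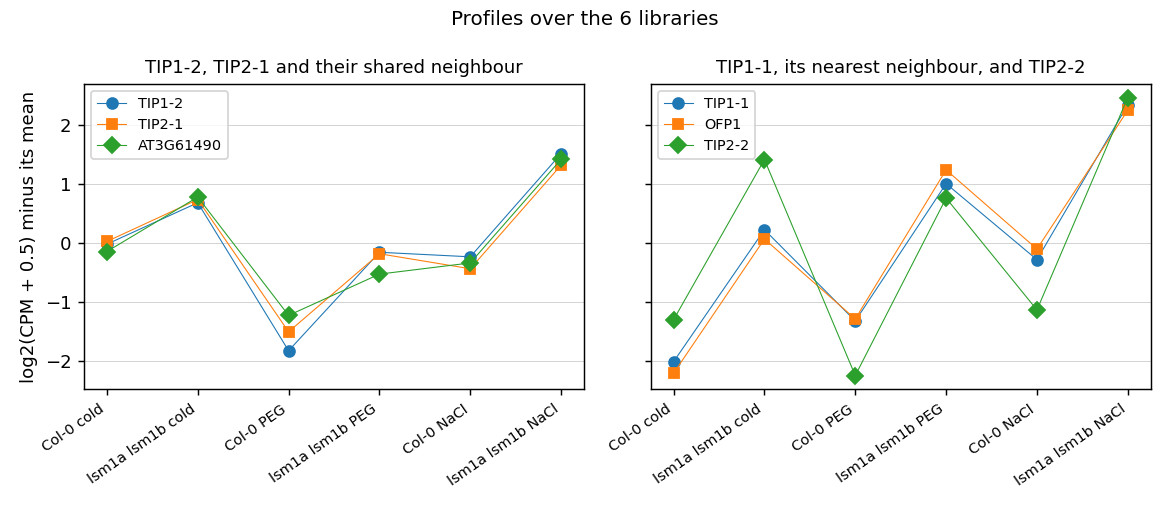
Centred log2(CPM + 0.5) of TIP1-2, TIP2-1 and AT3G61490 (left) and of TIP1-1, OFP1 and TIP2-2 (right) in the 6 libraries, 1 point per library. TIP1-2 and TIP2-1 nearly coincide, at a root mean square difference of 0.176, as do TIP1-1 and OFP1, at 0.163.

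The stretches just upstream of the gene start are shown for TIP1-1 and TIP2-2, the pair called across the 3 stresses, as 250 bases each on the coding strand from RefSeq (TAIR10.1), with matches to ACGTG (the core of the abscisic acid response element) and CCGAC (the core of the dehydration response element) on either strand in capitals.
TIP1-1, chr2:15445044-15445293, plus strand: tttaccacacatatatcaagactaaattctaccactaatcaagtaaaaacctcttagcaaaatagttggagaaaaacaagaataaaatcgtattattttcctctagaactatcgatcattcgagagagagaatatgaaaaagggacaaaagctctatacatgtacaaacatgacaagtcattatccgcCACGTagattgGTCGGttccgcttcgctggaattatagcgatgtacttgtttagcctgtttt
TIP2-2, chr4:9698690-9698939, plus strand: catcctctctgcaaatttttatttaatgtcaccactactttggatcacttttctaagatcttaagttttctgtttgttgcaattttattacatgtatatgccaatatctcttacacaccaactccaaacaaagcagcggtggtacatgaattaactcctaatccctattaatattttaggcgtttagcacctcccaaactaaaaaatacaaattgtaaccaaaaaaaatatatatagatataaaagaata

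TIP1-1 held 1 match to ACGTG and 1 to CCGAC, and TIP2-2 held neither. Of the 6 TIP genes, 1 had ACGTG, 2 had CCGAC (TIP1-1 and TIP1-2) and 2 had TTGAC, the core of the W-box (TIP1-2 and TIP4-1). Among the 27443 stretches of the same length before annotated genes, 22.9% held ACGTG, 12.0% CCGAC and 44.9% TTGAC on either strand. The matches in TIP1-1 do not overlap each other. TIP2-1, TIP2-2 and TIP2-3 held none of the 3. A match is a description of these letters only.

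The other TIP genes are seed and pollen types. TIP3-1, a TIP of the seed storage vacuole, had 314 counts in Col-0 and 2624 in lsm1a lsm1b under PEG, and 168 and 2485 under NaCl, log2 ratios of 3.14 (2.98 to 3.32) and 3.71 (3.50 to 3.96). TIP3-2, its seed-type relative, had 367 and 439 counts in PEG and 29 and 545 in NaCl, a log2 ratio of 0.34 in PEG and 3.98 in NaCl. In the added plate fit TIP3-1 was called (log2 difference 3.42, adjusted p = 0.00104). These are the stresses in which the seed markers given above were listed. TIP5-1, a pollen type, was listed in cold only, at 19 and 12 counts, and TIP1-3 was not listed.

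Plasma membrane aquaporins (PIPs), which admit water to the cell itself, were counted in the same way. Of 12 PIP genes at the level tested, 3 were at least 2-fold higher in lsm1a lsm1b in cold, 6 in PEG and 6 in NaCl. Over all genes the shares were 8.26%, 3.6% and 5.5%. None of the PIP genes was 2-fold lower except PIP1-5 in NaCl (log2 ratio −1.06). Their median log2 ratio was 0.57, 0.89 and 1.22, against 1.47, 2.01 and 2.18 for the TIP genes. The PIP genes with the highest ratios in PEG were PIP2-2 at 2.91, PIP2-3 at 2.33, PIP1-1 at 2.06 and PIP2-1 at 1.99. In cold they were PIP2-3 at 3.03, PIP2-2 at 2.59 and PIP1-1 at 1.42. In NaCl they were PIP2-2 at 3.76, PIP2-3 at 3.48, PIP1-1 at 3.29 and PIP2-1 at 2.07. The highest TIP ratios were 2.72 in cold (TIP2-2), 3.23 in PEG and 3.96 in NaCl (both TIP2-3). In cold PIP2-3 had a higher ratio than every listed TIP gene. Its counting interval there (2.77 to 3.35) overlapped that of TIP2-2 (2.56 to 2.91). Across the 3 stresses PIP2-2 (log2 difference 3.10) and PIP2-3 (2.96) were called, both at adjusted p = 0.0465, and the other 11 of 13 were not. Of all genes, 0.112% were called higher there. In the fit to the 4 plate libraries 6 of 13 PIP genes were called higher and none lower, beside 2.58% of all genes called higher.

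The NIP and SIP families, the remaining plant aquaporins, were counted likewise. None of 6 passed the 2-fold rule in cold and none of 5 in NaCl, and in PEG NIP1-2 was higher (log2 ratio 1.32) and NIP1-1 lower (−1.57). There NIP1-2 was at 4.24 CPM in Col-0 and NIP1-1 at 2.57 CPM in lsm1a lsm1b, so each could pass only in the direction given. The median log2 ratio of the NIP and SIP genes was 0.10, −0.06 and 0.25. None was called across the 3 stresses, where 2651 of all genes had an unadjusted p under 0.05, and NIP5-1 (0.95) was called in the plate fit.

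Genes for other proteins of the vacuolar membrane were read beside the TIP genes. Of the vacuolar proton pump genes (subunits of the V-ATPase and the vacuolar pyrophosphatase), none of 26 was 2-fold higher in cold, none of 27 in PEG and none of 27 in NaCl, with median log2 ratios of −0.18, −0.26 and −0.28. VHA-E3, which encodes an E subunit of the V-ATPase stalk, was at least 2-fold lower in both plate treatments, at 352 and 93 counts in PEG and 426 and 77 in NaCl. In lsm1a lsm1b it was at 4.98 CPM in PEG and 3.40 in NaCl, under the level limit, so it could pass downward only. Across the 3 stresses none of the 27 was called in either direction, and in the plate fit VHA-E3 was called lower (−2.24, adjusted p = 0.0102).

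Among 19 tonoplast transporters tested, 2 were higher in PEG, the calcium/proton exchangers CAX3 (log2 ratio 1.56) and CAX1 (1.03). In NaCl CAX3 was higher (1.67) and the sugar transporter TST1 lower (−1.32), and in cold the anion channel-like CLCc was lower (−1.37). Their median log2 ratios were −0.12, −0.06 and −0.12 in cold, PEG and NaCl. CAX3 was called in the plate fit (1.61, adjusted p = 0.00582) and none of the 19 across the 3 stresses.

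**Figure D5:**
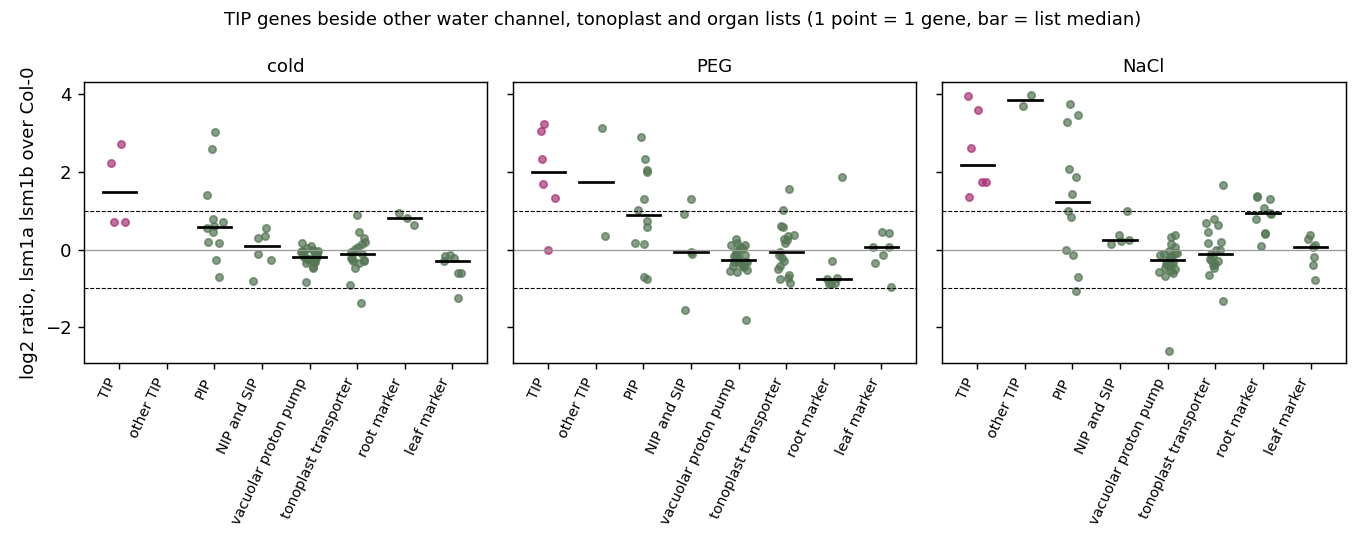
Log2 ratio of lsm1a lsm1b over Col-0 (vertical axis) in cold, PEG and NaCl for the TIP genes and for other water channel, tonoplast and organ marker lists, with 1 point per gene at 5 CPM or more and a bar at the list's median; dashed lines mark 2-fold. The TIP medians of 1.47, 2.01 and 2.18 lie above the PIP medians of 0.57, 0.89 and 1.22, and the proton pump medians lie between −0.28 and −0.18.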

How the data were processed

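RNA of leaves was sequenced in 6 libraries, 1 per genotype and stress. The deposited values are whole-number counts per gene and were not altered. TAIR10, TopHat2 and DESeq2 are named, without versions, per the submitters' processing notes. The counting tool, the strand and the handling of shared reads are not given in the sources used here.

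Where transcript name and locus code differed (270 NaCl rows, 1 PEG row), the code, which fitted the coordinates, was used. Members and lists were chosen with earlier results of these data known. Scaling was by TMM in edgeR 4.0.16 under R 4.3.3. Within a stress, log2 ratios came from log2 CPM with a prior count of 2 and were judged by the 2-fold and 5 CPM rule. Across stresses, edgeR's quasi-likelihood test (filterByExpr, two-sided, Benjamini-Hochberg adjusted p under 0.05 over all genes) was used. Its p-values rest on the spread left once stress and genotype are fitted, with each gene's spread drawn toward that of all genes. They measure no spread between replicates of a group. SE is the log2 difference divided by the square root of F. DESeq2 1.42.0, other scalings, prior counts, limits and left-out pairs were tried, and the procedure was tested on simulated data. All 6 TIP genes are named, with up to 4 genes per other list, by size among those past the rule, and the 2 nearest neighbours of each TIP gene. The reference annotation (TAIR10.1) held 20058 of the listed loci.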

Additional observations from a re-analysis of the deposited data

How the results depend on the processing

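Within a stress, the count of TIP genes past the 2-fold rule was the same under other scalings, prior counts and level limits. It became 4 in cold with a limit of 1.5-fold, which 2118 of all 14816 genes passed upward. With a limit of 4-fold it became 3 in PEG and 3 in NaCl, beside 136 of all 15070 and 205 of all 15906 genes. Across the 3 stresses, 4 TIP genes were called by DESeq2 and 0 without the stress block, and 0 to 4 when 1 stress pair was left out, with 839, 5 and 0 to 826 of all genes called, against 36. Without the block 540 genes and 2 TIP genes had an unadjusted p under 0.05. For NaCl against PEG DESeq2 called 3040 genes, against 1446, and leaving out the cold pair 4861. For cold against plates, 1 to 3 TIP genes were called when a plate pair was left out, with 2535 to 5989 of all genes called, against 7294. The log2 difference then ranged from −0.32 to 1.29 for TIP1-2, −0.067 to 1.201 for TIP2-1 and −0.62 to 0.78 for TIP2-2. Under total count scaling it was −0.082 for TIP2-2. The causes were not tested. The stress block was the only pairing used, since the labels number no replicates. Depth limits TIP2-3 and TIP4-1 most, with 91 to 345 counts in 6 of their 8 values.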
